A study of Homo sapiens with 4 samples.

Results

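The genes described here encode the axonal cytoskeleton and its transport machinery: the tubulin TUBA4A, the actin-binding protein PFN1, the kinesin heavy chain KIF5A, the dynactin subunit DCTN1, the intermediate filament proteins NEFL, NEFM, NEFH, INA and PRPH, and the tau gene MAPT. The 10 genes were chosen by name. Earlier results of these data were known when they and the wider gene lists below were chosen. Contact counts were taken for every listed pair of 50 kb bins in which at least 1 bin overlapped a gene body. They came to 64 of 89239 listed bin pairs, over 9 genes, of which 10 pairs were contacts within a single bin and 54 joined different bins. MAPT was not analysed here. Micro-C, a chromosome conformation capture method that cuts chromatin with micrococcal nuclease and so counts how often pieces of DNA lie close together, had been run on the human neuroblastoma cell line SH-SY5Y. There were 2 libraries from cells with a stable TDP-43 knockdown and 2 control libraries. For the knockdown, an shRNA named shTDP-43 was carried by a lentiviral vector and infected cells were kept under puromycin; the protocol names shNC as the other shRNA, and the control samples are labelled only as control. TDP-43 is an RNA- and DNA-binding protein. Neither clones nor pools nor separate cultures are stated for the libraries, so each p-value reflects the variation among these 4 libraries and nothing wider.

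Neurofilaments are the main intermediate filaments of axons. They assemble from light (NEFL), medium (NEFM) and heavy (NEFH) subunits, with INA (alpha-internexin) in central and PRPH (peripherin) in peripheral neurons. Microtubules, built of alpha and beta tubulin, are the tracks on which kinesin motors such as KIF5A carry cargo outwards and dynein, with its cofactor dynactin, carries it back. Mutations in TUBA4A, PFN1, KIF5A and DCTN1 are known in amyotrophic lateral sclerosis, the disease in which TDP-43 is typically lost from the nucleus of motor neurons. A contact map holds no RNA level, so neither the knockdown nor the neuroblastoma identity of the cells could be checked against marker genes. Over all listed pairs the knockdown libraries held 115168160 and 142424414 contacts and the control libraries 158400914 and 163147992. Levels are given as CPM, a pair's contacts relative to the total of its library after TMM scaling, which makes libraries of unequal depth comparable, and fold changes are knockdown over control.

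The stretch of 250 bases before an annotated transcript start is printed for 4 genes (RefSeq, GRCh38.p14, gene strand), as the starting points that lie in the bins measured. TUBA4A carried the pair with the lowest fold change of the set, PFN1 and PRPH had lower contacts within their bins, and INA had no pair past the threshold. Capitals mark CCCTC or its reverse complement GAGGG, the letters that gave the loop-anchoring factor CTCF its name.
TUBA4A: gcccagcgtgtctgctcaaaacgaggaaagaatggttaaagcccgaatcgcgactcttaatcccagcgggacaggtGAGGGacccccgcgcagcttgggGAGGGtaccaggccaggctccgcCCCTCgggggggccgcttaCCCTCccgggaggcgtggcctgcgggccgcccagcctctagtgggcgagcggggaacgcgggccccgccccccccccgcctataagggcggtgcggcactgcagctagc
PFN1: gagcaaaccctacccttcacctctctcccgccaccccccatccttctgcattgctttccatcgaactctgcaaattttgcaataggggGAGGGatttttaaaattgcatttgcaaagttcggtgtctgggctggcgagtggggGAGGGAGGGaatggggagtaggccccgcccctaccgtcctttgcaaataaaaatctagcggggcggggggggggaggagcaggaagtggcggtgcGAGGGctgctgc
PRPH: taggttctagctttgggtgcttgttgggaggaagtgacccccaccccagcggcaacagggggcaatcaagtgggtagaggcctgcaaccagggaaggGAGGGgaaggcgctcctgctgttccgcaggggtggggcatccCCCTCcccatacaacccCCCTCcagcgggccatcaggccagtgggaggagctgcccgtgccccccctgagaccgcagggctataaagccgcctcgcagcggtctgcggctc
INA: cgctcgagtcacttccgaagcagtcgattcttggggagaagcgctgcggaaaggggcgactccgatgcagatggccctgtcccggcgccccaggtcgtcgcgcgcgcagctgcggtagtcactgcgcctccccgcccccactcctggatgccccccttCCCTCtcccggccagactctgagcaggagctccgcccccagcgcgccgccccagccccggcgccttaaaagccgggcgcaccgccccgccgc
The windows lie on chromosome 2 from 219253919 to 219254168 (minus strand), chromosome 17 from 4948531 to 4948780 (minus strand), chromosome 12 from 49294897 to 49295146 (plus strand) and chromosome 10 from 103276888 to 103277137 (plus strand). The TUBA4A window lies before the start of a shorter transcript, inside the gene body. TUBA4A and PFN1 held 4 matches each, PRPH 3 and INA 1, overlapping matches counted apart. At least 1 match on either strand occurred in 66.6% of 35116 such windows over all genes, so the presence of this short run is common. GTGTGT or ACACAC, the DNA form of the GU repeats that TDP-43 binds in RNA, occurred in none of these 4 windows and in 11.3% of all. The GC content was 70.8% for TUBA4A, 58.0% for PFN1, 66.8% for PRPH and 72.8% for INA, beside a median of 58.0% over all windows. These matches describe the letters of the windows and show no binding. Sequences for 5 of the 10 genes were matched in the table used.

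Contacts within the bins of these genes were mostly lower in the knockdown. Of the 10 within-bin pairs, 8 passed the threshold (adjusted p below 0.05, edgeR's quasi-likelihood test with Benjamini-Hochberg adjustment over all 89239 pairs), each of them lower, against 14.3% of all within-bin pairs that were lower and 7.4% that were higher. The exceptions were the bins of NEFL and INA. In 9 of the 10 pairs both knockdown libraries lay below both controls, as in 28.5% of all within-bin pairs. The median log2 fold change was -0.21 over these 10 pairs and 0.02 over all within-bin pairs. Counting every pair, 10 of the 64 were lower and 2 higher, where 16.2% of all pairs differed (10.5% lower and 5.76% higher), and 7 of the genes overlapped a differing pair, where 57.4% of all protein-coding genes with a listed pair did. Of these 7, 6 had lower pairs only, as did 41.6% of all genes, and NEFH had both, as did 4.07%. Of the 54 between-bin pairs 4 passed, where 9.6% of all between-bin pairs did. With the abundance trend removed 3 of the 64 passed, where 11.0% of all pairs did, and all 3 were lower between-bin pairs of TUBA4A, where 7.07% of all between-bin pairs were lower and 1.42% higher.

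**Figure D1:**
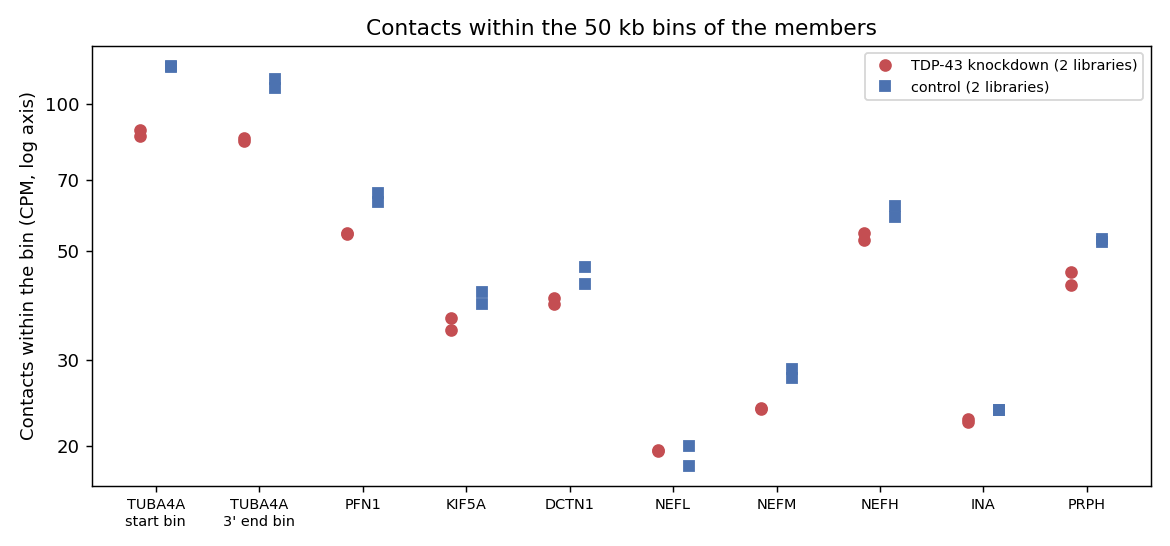
Contacts within the 50 kb bins of 9 genes (CPM, log axis), each point 1 library, with the TDP-43 knockdown left and the control right. TUBA4A spans 2 bins. The knockdown points lie below the control points in every bin except that of NEFL.

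Within-bin contacts were highest for TUBA4A and lowest for NEFL, and over all bins the fold change fell with the contact level. All bins have the same length, and counts were not corrected for copy number or mappability. Over the control libraries the bins ranked TUBA4A start bin, TUBA4A 3' end bin, PFN1, NEFH, PRPH, DCTN1, KIF5A, NEFM, INA and NEFL, and the ranges of neighbours in that order did not overlap. In the knockdown the order of means was the same, and only PFN1 and NEFH overlapped. Among all within-bin pairs the TUBA4A start bin stood at the 98.4th percentile of the control level and the NEFL bin at the 74.6th. Across 10 classes of level over all within-bin pairs, the median log2 fold change was -0.29 in class 10, the highest (median level 70.1 CPM), -0.09 in class 9 (32.6 CPM) and -0.01 in class 8 (19.4 CPM). Once this trend with abundance was removed by a loess fit per library, 0 of the 10 within-bin pairs passed (edgeR), against 13.0% of all within-bin pairs, and the median over the 10 was -0.02. In that fit the values nearest the threshold were -0.09 for the TUBA4A start bin (adjusted p = 0.0556) and -0.16 for NEFM (adjusted p = 0.0661).

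**Figure D2:**
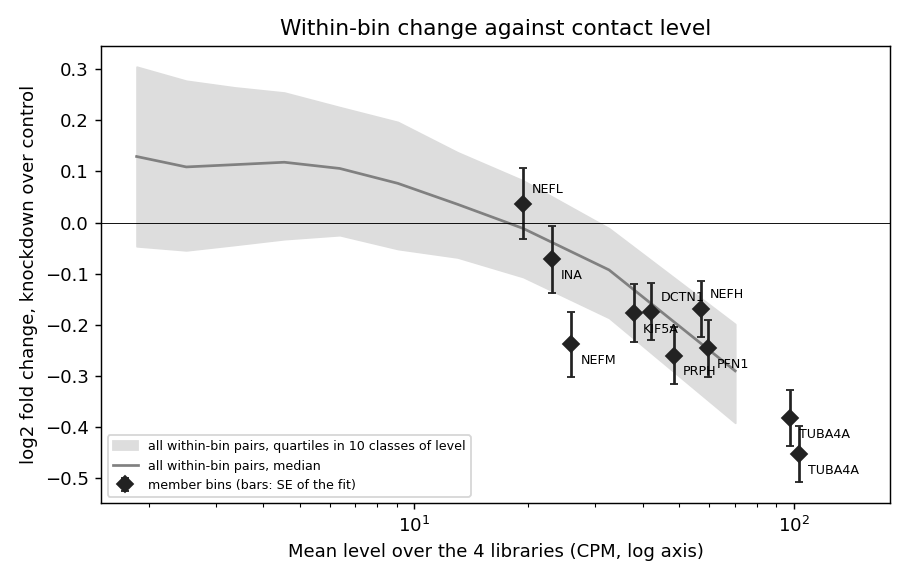
Log2 fold change of within-bin contacts (knockdown over control, TMM scaling) against the mean level of the 4 libraries (CPM, log axis). Diamonds are the bins of these genes with the SE of the fit, the line is the median and the band the quartiles of all within-bin pairs in 10 classes of level. NEFM at -0.24 lies under the band, and NEFL at 0.04 lies above the median line.

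TUBA4A, an alpha tubulin, had lower contacts both within its bins and across 250 kb. The gene (chromosome 2, 219249710 to 219254740, hg38) starts in the bin at 219250001 to 219300000 and ends, with 291 bases of its body, in the bin at 219200001 to 219250000. Contacts within the start bin were 86.0 and 88.5 CPM in the knockdown libraries, against 119 and 120 CPM in the controls. The groups did not overlap, and edgeR gave a log2 fold change of -0.45 with an SE of 0.05 (adjusted p = 5.31e-12). This bin also holds TUBA4B, DNAJB2, PTPRN and part of STK16, and the measurement does not separate them. In the 3' end bin, which holds ABCB6, ANKZF1, ATG9A, GLB1L and ZFAND2B, the levels were 85.5 and 84.1 CPM in the knockdown, against 108 and 113 CPM in the controls (log2 fold change -0.38, SE 0.05, adjusted p = 4.63e-09). Both kept the call when any 1 library was left out, the highest adjusted p being 0.00454, and both lost it with the abundance trend removed (-0.09, adjusted p = 0.0556, and -0.03, adjusted p = 0.593).

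Contacts between the TUBA4A start bin and the bin at 219500001 to 219550000, 250 kb away, were 1.85 and 1.83 CPM in the knockdown, against 3.28 and 3.08 CPM in the controls. The counts behind them were 224 and 272 in the knockdown and 501 and 474 in the controls. Knockdown fell below control without overlap, by 0.79 on the log2 scale with an SE of 0.19 (adjusted p = 0.00102), and 5.84% of all between-bin pairs passed as lower. The partner bin holds OBSL1, which encodes a cytoskeletal adaptor protein, and CHPF, GMPPA, ASIC4 and TMEM198. Of the 12 pairs past the threshold, this is the one that kept its call and direction in every alternative run. With the trend removed it was -0.87 (adjusted p = 0.000417), the authors' deposited table gives an adjusted p of 0.000478, and leaving out 1 library in turn gave adjusted p from 0.00154 to 0.0413. From the neighbouring 3' end bin to the same partner, 300 kb away, the log2 fold change was -0.24 (adjusted p = 0.509).

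TUBA4A had 21 listed pairs, more than any other of the 9 genes, and 19 of them had a negative log2 fold change. Their median was -0.21, beside 0.02 over all pairs. Each involves at least 1 of its 2 adjoining bins, so they are not separate observations. In 11 of the 21 both knockdown libraries lay below both controls, as in 26.3% of all pairs, and in none did they lie above. Contacts between its own 2 bins fell as well, at 15.5 and 15.6 CPM in the knockdown, against 18.3 and 18.6 CPM in the controls (log2 fold change -0.24, adjusted p = 0.0119, edgeR; -0.22, adjusted p = 0.0407 with the trend removed). Leaving out knockdown library 1 (adjusted p = 0.17) or knockdown library 2 (0.137) ended that call. Toward the other side, contacts of the start bin with the bin of WNT6 and WNT10A, 400 kb away, had 2.05 and 2.39 CPM in the knockdown, against 3.41 and 2.76 CPM in the controls. Their log2 fold change of -0.47 did not pass (adjusted p = 0.0685), but it did once the abundance trend was taken out (-0.55, adjusted p = 0.0341). The 3' end bin stood at -0.27 with that same partner (adjusted p = 0.396, edgeR). Contacts of the start bin with the bin of DES, the muscle intermediate filament gene, 150 kb away, had a log2 fold change of -0.21 (adjusted p = 0.546). With the bin of CDK5R2, an activator of the kinase Cdk5, the 3' end bin had -0.42 (adjusted p = 0.111) and the start bin -0.07 (adjusted p = 0.869).

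**Figure D3:**
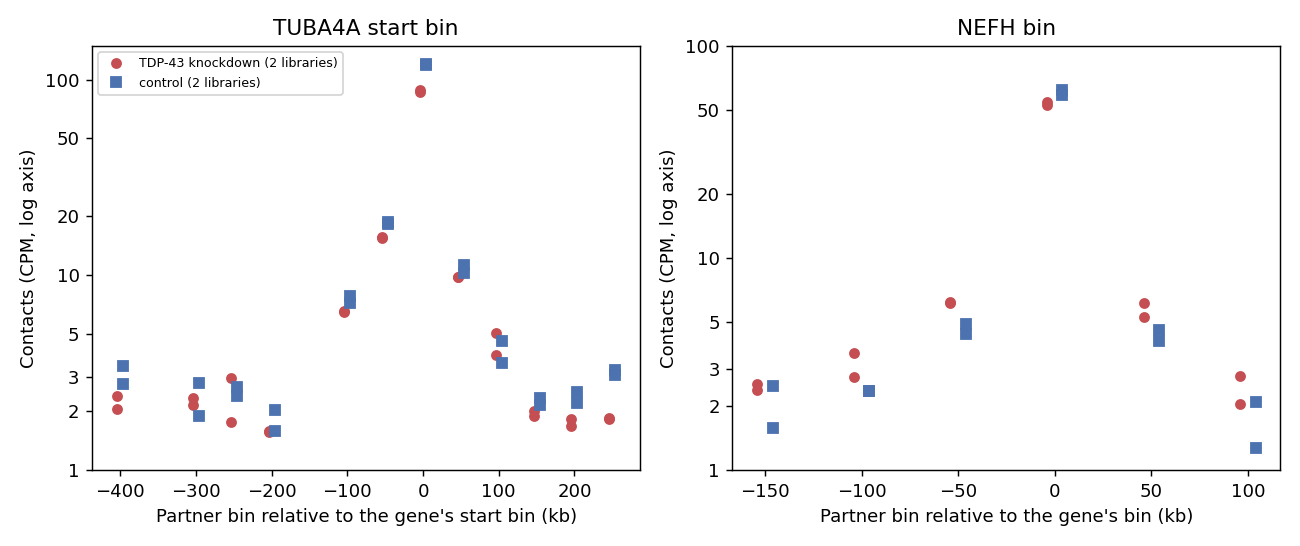
Contacts (CPM, log axis) of the TUBA4A start bin (left) and the NEFH bin (right) with each listed partner bin, placed by its distance in kb from the gene's bin. Each point is 1 library, with the TDP-43 knockdown drawn left of the control. At 250 kb from TUBA4A the knockdown points lie at 1.85 and 1.83 CPM, below both controls, and at 50 kb to either side of NEFH they lie above both controls.

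NEFH, the heavy neurofilament subunit (chromosome 22, 29480218 to 29491390), went the other way: its contacts with neighbouring bins were higher in the knockdown. NEFH is the one protein-coding gene in its bin, at 29450001 to 29500000. Contacts with the adjoining bin of RFPL1 were 6.16 and 6.24 CPM in the knockdown, against 4.89 and 4.40 CPM in the controls (log2 fold change 0.42, SE 0.13, adjusted p = 0.0118, edgeR). On the other side, contacts with the adjoining bin of THOC5, a component of the mRNA export machinery, were 5.28 and 6.13 CPM in the knockdown, against 4.07 and 4.58 CPM in the controls (log2 fold change 0.40, SE 0.13, adjusted p = 0.0225). Neither pair of groups overlapped, and among all between-bin pairs 3.76% were higher and past the threshold. Neither call was firm. The RFPL1 call did not survive leaving out knockdown library 1 (adjusted p = 0.134), knockdown library 2 (0.147) or control library 2 (0.0716), nor TMM within distance classes (0.0559). The THOC5 call did not survive leaving out knockdown library 1 (0.0662), knockdown library 2 (0.406) or control library 1 (0.122), nor DESeq2 (0.0767) or TMM within distance classes (0.0871). After trend removal the values were 0.36 for RFPL1 (adjusted p = 0.0516) and 0.34 for THOC5 (0.083).

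The other 3 pairs of NEFH pointed the same way without passing. With the bin of AP1B1 and RFPL1, 100 kb away, the levels were 2.74 and 3.59 CPM in the knockdown, against 2.36 CPM in both controls (log2 fold change 0.42, adjusted p = 0.0978). With the bin of THOC5 and NIPSNAP1, 100 kb away, they were 2.79 and 2.04 CPM in the knockdown, against 1.27 and 2.10 CPM in the controls (0.52, adjusted p = 0.0853), so the groups overlapped. With the bin of EWSR1, 150 kb away, the log2 fold change was 0.27 (adjusted p = 0.396). Within the NEFH bin contacts were lower, at 52.8 and 54.6 CPM in the knockdown, against 58.9 and 61.9 CPM in the controls (-0.17, SE 0.05, adjusted p = 0.0206). This value turned to 0.07 (adjusted p = 0.325) with the trend removed, and the call ended when knockdown library 1 (adjusted p = 0.41) or knockdown library 2 (0.186) was left out.

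Summed over its 5 listed partners, the outward contacts of NEFH rose in the knockdown. Outward contacts are those from the bins of a gene to other listed bins. They were summed per gene and tested over all 14501 protein-coding genes that have any, with CPM and TMM scaling taken over these sums. For NEFH they were 60.1 and 62.7 CPM in the knockdown, against 44.4 and 48.8 CPM in the controls. The increase was 0.40 on the log2 scale with an SE of 0.07 (adjusted p = 9.68e-06, edgeR), where 7.51% of all genes were higher. It held with the abundance trend removed (0.37, adjusted p = 0.000645), where 6.15% of all genes were higher, with DESeq2 (adjusted p = 4.28e-05) and in each fit that left out 1 library (0.33 to 0.48, adjusted p up to 0.00599). A log2 fold change as high as that of NEFH or higher was found in 3.52% of all genes.

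Of the other 8 genes, TUBA4A alone passed in outward contacts, and it was lower. Its 18 outward pairs summed to 187 and 189 CPM in the knockdown, against 216 and 212 CPM in the controls (log2 fold change -0.19, SE 0.05, adjusted p = 0.00144, edgeR), where 17.5% of all genes were lower. With the trend removed over these sums the estimate was near 0 (adjusted p = 0.986, edgeR, where 7.88% of all genes were lower). Without knockdown library 1 or knockdown library 2 the estimate was -0.18 or -0.20, and TUBA4A did not pass in either fit. The loess fit here took its level from the sum over the 18 pairs, not from each pair. With the trend removed over bin pairs, the outward pairs of TUBA4A ran from -0.87 to 0.07. The other 7 genes lay between -0.06 for KIF5A (adjusted p = 0.5) and 0.11 for NEFM (adjusted p = 0.551).

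The share of a gene's listed contacts that left its bins is free of the scaling between libraries, since both parts come from the same library. For NEFH it was 27.0% and 27.2% in the knockdown, against 19.4% and 20.5% in the controls, a difference of 7.15 percentage points. This was the widest difference among the 9 genes. The share rose in general: its median over all genes was 22.4% and 22.2% in the knockdown and 20.2% and 20.0% in the controls, and in 70.6% of genes both knockdown libraries lay above both controls. Relative to the median gene of each library, the outward over inside ratio of NEFH was higher by 0.39 on the log2 scale (SE 0.08, adjusted p = 0.000747, limma over 14499 genes), where 0.71% of all genes passed as higher and 1.3% as lower. It did not pass when knockdown library 1 (0.40, adjusted p = 0.107) or knockdown library 2 (0.38, adjusted p = 0.085) was left out. None of the other 8 genes passed in this test, which called 2.01% of all genes. The test was added after the data had been seen.

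**Figure D4:**
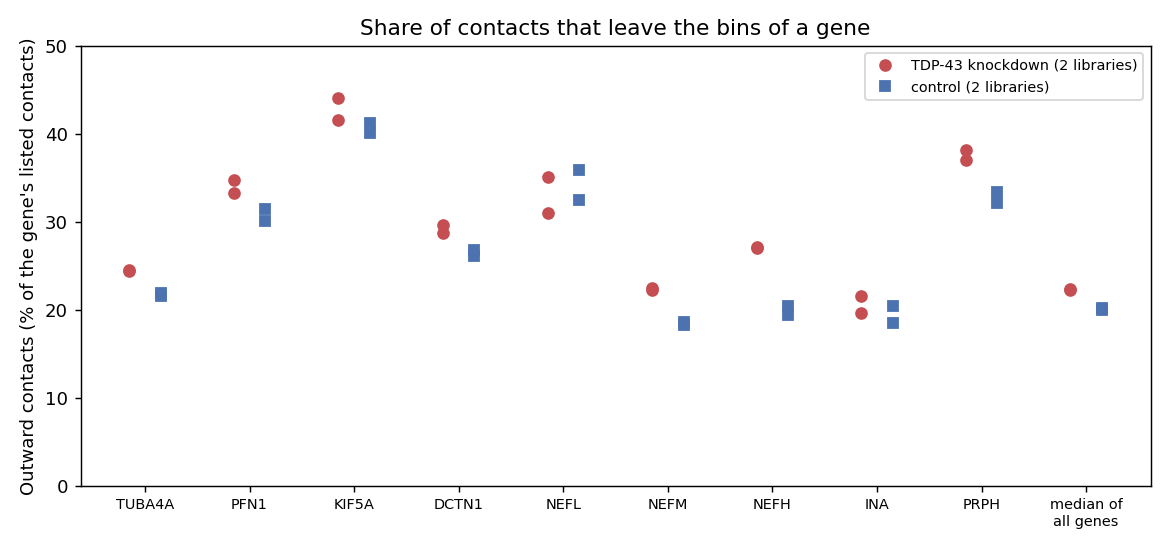
Outward contacts as a percentage of all listed contacts of a gene, for 9 genes and for the median of all genes. Each point is 1 library, with the TDP-43 knockdown left and the control right. NEFH stands at 27.0% and 27.2% in the knockdown, above 19.4% and 20.5% in the controls, and the groups overlap for NEFL and INA.

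The light and medium neurofilament genes sit in adjoining bins of chromosome 8, and the ratio of their within-bin contacts was higher in the knockdown. NEFM (24913761 to 24919093) and NEFL (24950955 to 24956612) are each the one protein-coding gene in their bin. Contacts within the NEFM bin were 23.7 and 23.9 CPM in the knockdown, against 27.5 and 28.7 CPM in the controls (log2 fold change -0.24, SE 0.06, adjusted p = 0.00295, edgeR). Within the NEFL bin they were 19.5 and 19.6 CPM in the knockdown, against 18.2 and 20.0 CPM in the controls (0.04, SE 0.07, adjusted p = 0.778), so the knockdown libraries lay inside the control range. The NEFL over NEFM ratio of raw within-bin counts, which needs no scaling, was 0.823 and 0.820 in the knockdown, against 0.661 and 0.696 in the controls, without overlap, as in 50.5% of all adjoining bins in either direction. A test of this ratio was added after the data had been seen. The log2 change of this ratio was 0.28 (SE 0.09, adjusted p = 0.031, limma over 45518 adjoining bins), where 8.1% of adjoining bins passed. A change of this size or more was found in 22.8% of adjoining bins, and the call ended without knockdown library 1 (adjusted p = 0.318), knockdown library 2 (0.23) or control library 1 (0.101). Contacts between the NEFM and NEFL bins were 5.00 and 5.14 CPM in the knockdown, against 4.61 and 4.78 CPM in the controls (0.11, adjusted p = 0.628).

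The within-bin call of NEFM likewise ended without knockdown library 1 (adjusted p = 0.119) or knockdown library 2 (0.0827). Of the remaining pairs of NEFL, the one to the bin 50 kb on its other side had 2.26 and 3.34 CPM in the knockdown, against 3.55 and 3.28 CPM in the controls (log2 fold change -0.28, adjusted p = 0.28). The knockdown libraries lay far apart there. The pair of NEFL to the bin 100 kb away had 0.03 (adjusted p = 0.944, edgeR). NEFM had 0.12 with the adjoining bin on its other side (adjusted p = 0.77).

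Of INA and PRPH, the filament partners of the neurofilament triplet, PRPH had lower contacts within its bin and INA had no pair past the threshold. INA (chromosome 10, 103277138 to 103290346), alone in its bin, had 22.7 and 22.4 CPM in the knockdown, against 23.7 and 23.6 CPM in the controls, which is a difference of -0.07 on the log2 scale (SE 0.07, adjusted p = 0.503). Its 2 other pairs, to the adjoining bins, had log2 fold changes of 0.17 and -0.06, and neither passed. PRPH (chromosome 12, 49295147 to 49298686) shares its bin with part of TUBA1C, an alpha tubulin gene. Contacts there were 42.7 and 45.3 CPM in the knockdown, against 52.4 and 53.0 CPM in the controls (-0.26, SE 0.06, adjusted p = 0.000121, edgeR), a call that ended when knockdown library 1 was left out (adjusted p = 0.128). With the abundance trend removed, the within-bin value of PRPH was -0.06 (adjusted p = 0.427, edgeR). Of the 7 outward pairs of PRPH none passed, the values running from -0.24 to 0.38, and in 4 of them both knockdown libraries lay above both controls, as in 29.8% of all pairs. Contacts with the adjoining bin, which TUBA1C reaches into, were 4.63 and 4.43 CPM in the knockdown, against 3.87 and 3.47 CPM in the controls (0.30, adjusted p = 0.154), and those with the bin of TUBA1A, a further alpha tubulin gene 100 kb away, had 1.46 and 1.71 CPM in the knockdown, against 1.28 and 1.89 CPM in the controls (adjusted p = 0.996).

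The motor and actin genes had lower contacts within their own bins and no outward pair past the threshold. PFN1, which delivers actin monomers to growing filaments (chromosome 17, 4945652 to 4948530), lies in a bin of 7 protein-coding genes, among them ENO3, CHRNE and SLC25A11. Contacts there were 54.6 and 54.2 CPM in the knockdown, against 63.2 and 65.9 CPM in the controls (log2 fold change -0.25, SE 0.05, adjusted p = 0.00026, edgeR). It no longer passed without knockdown library 1 (adjusted p = 0.0714) or knockdown library 2 (0.0783). With the abundance trend removed, the within-bin value of PFN1 was -0.0025 (adjusted p = 0.979, edgeR). None of its 7 outward pairs passed, with values from -0.17 to 0.22. The highest was toward the bin 100 kb away with SLC52A1 and part of KIF1C, a kinesin gene (adjusted p = 0.438, edgeR). Toward the adjoining bin, which also holds part of KIF1C, the value was -0.0095 (adjusted p = 0.964).

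KIF5A (chromosome 12, 57550044 to 57586633) fills most of its bin, which also holds part of PIP4K2C. Contacts there were 36.5 and 34.6 CPM in the knockdown, against 41.3 and 39.0 CPM in the controls (log2 fold change -0.18, SE 0.06, adjusted p = 0.0172, edgeR). DCTN1, the large dynactin subunit that binds microtubules (chromosome 2, 74361155 to 74391866), is the one protein-coding gene in its bin. Its levels were 39.0 and 40.2 CPM in the knockdown, against 46.5 and 43.0 CPM in the controls (-0.17, SE 0.06, adjusted p = 0.0185). In neither bin did the groups overlap, but the differences were small and the calls fragile: without knockdown library 1 or 2 the adjusted p was 0.121 and 0.378 for KIF5A and 0.35 and 0.161 for DCTN1, and without control library 1 it was 0.0767 for DCTN1. With the abundance trend removed, the within-bin value was -0.03 for KIF5A (adjusted p = 0.783, edgeR) and -0.003 for DCTN1 (0.979). The 5 outward pairs of KIF5A and the 5 of DCTN1 had none past the threshold, with values from -0.15 to 0.12 and from -0.15 to 0.25.

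**Figure D5:**
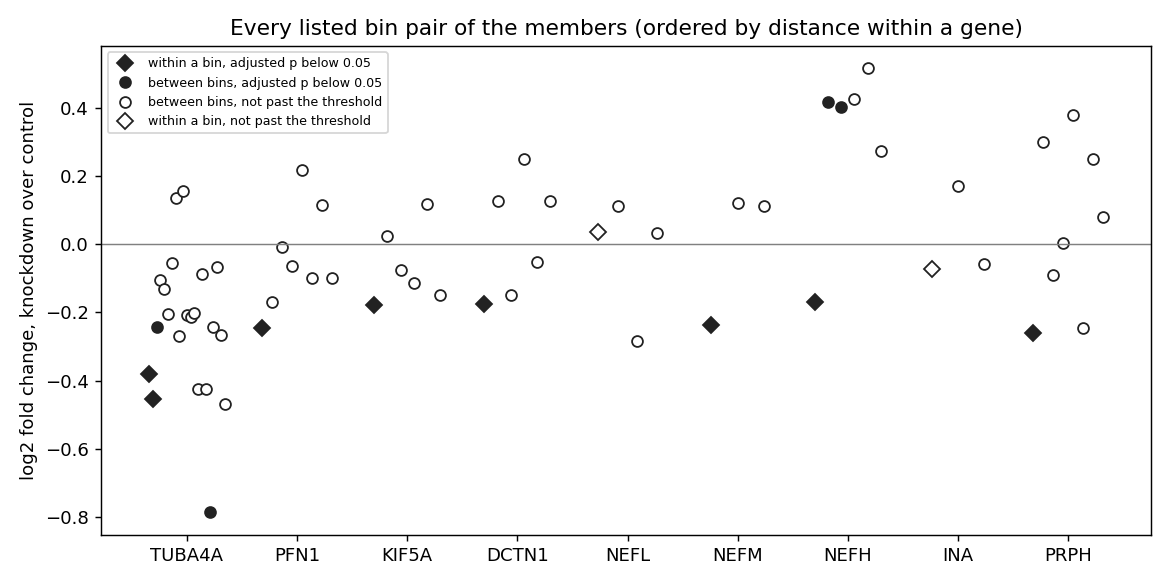
Log2 fold change (knockdown over control, TMM scaling) of every listed bin pair of 9 genes, ordered from short to long distance within each gene. Diamonds are contacts within a bin, circles contacts between bins, and filled symbols passed the threshold. The pair shared by NEFL and NEFM is drawn under both. TUBA4A reaches down to -0.79 and NEFH up to 0.52.

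The contacts inside a gene's bins, summed per gene and scaled over the sums of all 18701 genes, gave a smaller set. With that scaling TUBA4A (log2 fold change -0.29, adjusted p = 2.38e-06, edgeR), PRPH (-0.15, adjusted p = 0.0101) and PFN1 (-0.14, adjusted p = 0.00865) were lower, as were 28.4% of all genes. For the 8 genes that lie in 1 bin these are the same counts as above. What differs is the scaling, which sets gene-bearing bins rather than all bin pairs to a median near 0 (0.01 over all genes). NEFH at -0.06 (adjusted p = 0.253), DCTN1 at -0.06 (0.322) and KIF5A at -0.07 (0.315) did not pass on it, and NEFL stood at 0.15 (0.0771). With the trend removed over these sums, NEFM passed too (-0.20, adjusted p = 0.00647), beside PRPH (-0.16, 0.00561), PFN1 (-0.11, 0.035) and TUBA4A (-0.09, 0.0182), where 20.5% of all genes were lower. That loess fit took its level from the sum of each gene, not from each bin pair. In the fit over bin pairs the same counts stood at -0.0025 for PFN1 (adjusted p = 0.979, edgeR), -0.06 for PRPH (0.427) and -0.16 for NEFM (0.0661). None of these passed there. On the sums per gene without trend removal, the PRPH call was lost without knockdown library 1, where the estimate was -0.11. The PFN1 call on those sums was lost without knockdown library 1 (estimate -0.14), knockdown library 2 (-0.13) or control library 2 (-0.10).

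Genes of the wider cytoskeleton and transport lists were counted in the same way, and lower pairs made up about the same share of those that differed as among all genes. Of 96 further genes in 7 lists, 94 had a listed pair and 66 overlapped a differing one (70.2%, against 57.4% of all genes). Of these, 48 had lower pairs only, 13 higher pairs only and 5 both, where 41.6%, 11.8% and 4.07% of all genes did. Genes with lower pairs only made up 72.7% of the differing list genes and 72.4% of all differing genes. With the abundance trend removed 43 list genes overlapped a differing pair, 25 only lower, 17 only higher and 1 both. Among all genes 37.8% then did, 25.5% with a lower pair and 14.4% with a higher one.

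For the counts by list that follow, the shares over all genes were 57.4% differing, 41.6% only lower and 11.8% only higher. With the trend removed 37.8% of all genes differed. Of 12 other tubulin genes 9 differed, all only lower, and with the trend removed 5 did, 4 lower and 1 higher. TUBB4B had a log2 fold change of -0.63, and of -0.19 with the trend removed. TUBB3, the neuronal beta tubulin, had -0.48, and -0.11 with the trend removed. Of the 5 other intermediate filament genes 4 differed, all only lower, and 3 with the trend removed, also lower. NES, the nestin gene, had -0.41, which turned to 0.07 after trend removal and did not pass there (adjusted p = 0.0793). Of 15 microtubule-associated protein genes 13 differed, 7 only higher, 5 only lower and 1 both, and with the trend removed 7 did, 5 higher and 2 lower. MAP1B, an axonal microtubule-binding protein, had a pair at 0.69, and at 0.61 with the trend removed.

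Of 16 kinesin genes 9 differed, 7 only lower, 1 only higher and 1 both, and with the trend removed 5 did, 2 lower, 2 higher and 1 both. KIF1A, a motor for synaptic vesicle precursors, had a pair 200 kb apart at -0.65, and at -0.72 with the trend removed. Of 20 dynein and dynactin genes 13 differed, 10 only lower, 2 only higher and 1 both, and with the trend removed 8 did, 4 lower and 4 higher. DCTN6, a dynactin subunit, had the pair with the largest change of that list, at 0.84. Of 14 profilin, actin and actin regulator genes 11 differed, 9 only lower, 1 only higher and 1 both, and with the trend removed 9 did, 7 lower and 2 higher. The largest change there was an increase at GSN, the actin-severing protein gelsolin, at 0.82 (adjusted p = 0.0053, edgeR), and ACTG1, a cytoplasmic actin, had a pair at -0.66. Of 12 cargo adaptor and regulator genes 7 differed, 4 only lower, 2 only higher and 1 both, and with the trend removed 6 did, 3 lower and 3 higher. RHOT1, which couples mitochondria to motors, had a pair at 0.99, with 2.19 and 2.09 CPM in the knockdown, against 0.954 and 1.19 CPM in the controls (adjusted p = 0.000435, edgeR). Some of these calls ended when a library was left out: MAP1B without control library 1 (adjusted p = 0.118) or knockdown library 1 (0.237), GSN without control library 1 (0.108) or knockdown library 2 (0.147), and KIF1A (0.0651) and DCTN6 (0.0914) without knockdown library 2.

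By the profile of the 4 libraries in the bin of the gene start, the gene of the lists nearest to TUBA4A was DES, at a distance of 0.034 on the log2 scale, and the one nearest to NEFH was DPYSL3 (0.0229). PFN1 and NEFM were each other's nearest (0.0181), among 92 genes compared. Second nearest to TUBA4A was the actin gene ACTB (0.0507). Each profile has 4 points, and DES lies near TUBA4A on the same chromosome. The distances rank the genes of the lists and were not tested.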

How the data were processed

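Per the submitters' processing notes, contacts were processed with HiC-Pro on hg38, with no version given. The deposited table holds the raw contact count of each library for pairs of 50 kb bins, with no normalization. Per the file headers it also holds the authors' log2 fold change and log2 mean abundance, an F statistic (a score) of the authors' fit, and the authors' p-value with its adjusted value. It starts at a log2 mean abundance of -0.01, so its totals are not the full sequencing depth of a library.

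Counts were fitted with edgeR 4.0.16 (R 4.3.3, limma 3.58.1): TMM scaling, filterByExpr (0 pairs removed), glmQLFit and glmQLFTest, Benjamini-Hochberg over all pairs, threshold 0.05. Gene bodies came from RefSeq GRCh38.p14 (protein-coding genes, placed chromosomes). A bin was its mid-point ± 25 kb. Contacts with both bins over a gene (inside) or 1 bin (outward) were summed and fitted alike. The outward over inside ratio and the ratio of adjoining bins (log2, 0.5 added to each count) were tested with limma and were added after seeing the data. Alternatives were loess removal of the abundance trend (span 0.3), DESeq2 1.42.0, TMM within distance classes, thresholds of 0.01 and 0.1, no filter, each library left out in turn, a replicate block, start bins alone, within-bin or between-bin contacts alone, and the authors' table. The scripts were tested on simulated data. Python 3.11.15, numpy 2.4.6, pandas 2.3.3 and matplotlib 3.10.9 were used.

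Every listed pair of the 9 genes was accounted for. From the lists, up to 3 genes each were taken by size of change among those past the threshold, not all of which are printed. CDK5R2, WNT6, EWSR1 and other genes named only as partners of a pair came from the bins themselves. The members and lists were chosen with earlier results of these data known.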

Additional observations from a re-analysis of the deposited data

How the results depend on the processing

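The 12 differing pairs of these genes became 6 at a threshold of 0.01, and 3 both in the authors' table and with the abundance trend removed. The 7 genes with a differing pair became 4 at 0.01, 1 both in the authors' table and after trend removal, and 2 with contacts between bins alone. The 3 genes with differing inside contacts became 5 at a threshold of 0.1, the 2 with differing outward contacts 1 after trend removal, the 66 list genes 43 both after trend removal and in the authors' table, and the 1 gene with a differing outward over inside ratio 6 without centring. With 1 library left out, so that the lone library of a group is assumed to vary like the others, these ran from 3 to 14 pairs, 1 to 7 genes, 1 to 3 for inside contacts, 1 to 2 for outward contacts, 34 to 72 list genes and 0 to 1 for the ratio. The low ends came without knockdown library 1 or 2. The log2 fold change of contacts within the NEFH bin reversed to 0.066 after trend removal, and is 0.067 in the authors' deposited table. That of the NEFL bin, 0.04, ran from -0.042 to 0.11 over the fits that left out 1 library, reversed without control library 1. DESeq2 and no filter kept the counts of pairs, of genes with a differing pair, of inside and outward contacts and of list genes within 1.5 times; TMM within distance classes, run for pairs, genes with a differing pair and list genes, and start bins alone, run for genes with a differing pair, did so too. The titles number the libraries alike in both groups, but nothing says that a number marks a shared culture, and deviations of same-numbered libraries correlated with r = 0.0193. With the replicate block the counts were 12 pairs, 7 genes, 3 inside, 2 outward and 69 list genes, and no named pair changed its call. With 2 libraries a group an exact permutation test of a single value cannot give a two-sided p below 0.333. The listed pairs of these genes reach 400 kb, and longer contacts were not analysed here.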
